A study of Homo sapiens with 15 samples.

Results

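SIRT1 and SIRT3 encode sirtuins, deacetylases that remove acetyl groups from proteins and use up NAD in each reaction. They were chosen here by gene symbol, with the other SIRT genes beside them: 2 of the 14884 genes named on the array. All 7 sirtuin symbols, SIRT1 to SIRT7, had a named row, 1 probe set each, and all 7 were bright enough to be tested among 11804 genes.

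The 15 arrays held RNA of Caco-2, an established line from a human colon carcinoma whose confluent cells come to resemble enterocytes, used 15 to 19 days after seeding. The 5 control arrays came from untreated cells. The 5 LPS arrays came from cells given lipopolysaccharide (LPS), an outer membrane component of Gram-negative bacteria, here E. coli K12, at 1 µg/mL for 48 h. The 5 LPS+RSV arrays came from cells that also received 50 µM trans-resveratrol in ethanol 1 h before LPS. There was no group with resveratrol alone, and the labels do not say whether the other groups received ethanol. They number replicates without naming separate cultures, so the spread behind each p-value is that between samples and may be technical.

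Sirtuins sit in different compartments. SIRT1, SIRT6 and SIRT7 are mainly nuclear, SIRT2 is mainly cytoplasmic, and SIRT3, SIRT4 and SIRT5 act in mitochondria. SIRT1 deacetylates transcription factors such as p53 and FOXO proteins and the coactivator PGC-1α, and SIRT3 is the main deacetylase of the mitochondrial matrix. Resveratrol is widely studied as a compound that acts through SIRT1 activity, a property of the protein that an array of transcripts does not measure.

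The sequences before the start sites of the pair that the results turn on, SIRT1 and SIRT3, are shown as a description. They are RefSeq sequences of GRCh38.p14. For SIRT1 it is the 250 bases upstream on the plus strand (chr10:67884406-67884655). For SIRT3, on the minus strand, it is the 44 bases that separate its start from that of PSMD13, a proteasome subunit gene read in the opposite direction (chr11:236932-236975). In the SIRT1 stretch capitals mark the GC box GGGCGG and the E-box CACGTG, and in the SIRT3 stretch the ETS-type letters CCGGAAG, each searched on both strands.
SIRT1 upstream: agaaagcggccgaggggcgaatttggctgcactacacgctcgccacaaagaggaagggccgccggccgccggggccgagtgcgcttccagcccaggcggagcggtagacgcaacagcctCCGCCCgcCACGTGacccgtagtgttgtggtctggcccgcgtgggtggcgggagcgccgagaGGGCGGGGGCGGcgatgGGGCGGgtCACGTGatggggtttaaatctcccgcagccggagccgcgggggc
SIRT3 to PSMD13: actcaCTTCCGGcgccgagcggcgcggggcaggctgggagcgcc
The SIRT1 stretch was 72.0% G or C and held 4 GC boxes and 2 E-boxes. Of 35116 RefSeq promoter windows, 42.6% held the GC box and 6.34% the E-box within the 250 bases before the start. The SIRT3 stretch was 79.5% G or C and held 1 ETS-type match, which 3.16% of windows held in the 44 bases before the start. These matches describe the letters of the sequences and show neither binding nor control. Only motifs with a match in a stretch are marked. Such matches are not particular to these genes, as 1 SIRT6 window also held 4 GC boxes and 1 ETS-type match. SIRT3 itself had 1 GC box just after its start. PSMD13 had no row named here.

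The arrays carried several genes of an intestinal epithelial line at high levels. VIL1 (villin of the brush border) lay between 10.67 and 11.33 on the log2 scale of the deposited values, where 1 unit is a doubling, EPCAM between 11.52 and 12.10, and SI (sucrase-isomaltase) between 11.41 and 12.59. Of 14 enterocyte markers named here, all 14 passed the filter on dim rows (above the 40th percentile of an array's rows, 5.03 to 5.09, on at least 5 arrays), while LCT, the lactase gene, stayed near it at 5.03 to 5.51. Of 7 fibroblast, endothelial and immune markers named, 6 passed it, and DCN (decorin of fibroblasts) was on 0 arrays. All 5 goblet, Paneth and endocrine markers named also passed it, as did 11804 of the 14884 genes named. Passing the filter therefore does not set enterocyte genes apart. KRT18, an epithelial keratin, was the 1 marker called: its mean was 9.82 in control, 10.55 in LPS and 9.88 in LPS+RSV (limma adjusted p = 0.038 for LPS against control and 0.0474 for LPS+RSV against LPS, the latter 0.0713 without LPS+RSV replicate 1). KRT20, a keratin of mature enterocytes, differed by 1.16 ± 0.34 between LPS and control and by -1.02 ± 0.34 between LPS+RSV and LPS (limma adjusted p = 0.351 and 0.166). LPS replicates 1 and 2 stood apart in KRT20, at 7.62 and 7.96 against 5.79 to 6.34 on the other LPS arrays. Results are also given without this pair, which stood apart in an earlier analysis of these data. CD68, a lysosomal protein of macrophages that other cells also make, was high at 11.15 to 11.96. LUM (lumican, another fibroblast gene) was dim, above the filter on 5 arrays, and differed by -0.98 between LPS+RSV and LPS (limma adjusted p = 0.0648); its part in the results was not tested. LPS+RSV replicate 1 was the least like the others. Its correlations with them averaged 0.946, where each of the remaining arrays averaged 0.973 to 0.984.

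SIRT3, the mitochondrial deacetylase, was lowest in LPS and highest in LPS+RSV. On the log2 scale the control arrays read 7.14, 7.17, 7.31, 7.40 and 7.43, in the order of replicates 1 to 5. The LPS arrays read 7.03, 7.08, 7.28, 6.99 and 7.03. The LPS+RSV arrays read 7.59, 7.39, 7.28, 7.45 and 7.33. Of the 5 LPS arrays 4 lay below every control array, and 4 of the 5 LPS+RSV arrays lay above every LPS array. The overlap in both cases came from LPS replicate 3, at 7.28. In such bulk RNA, fewer cells that express a gene and less of its RNA per cell cannot be told apart.

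The mean SIRT3 level was 7.29 ± 0.13 in control, 7.08 ± 0.12 in LPS and 7.41 ± 0.12 in LPS+RSV (log2, SD, n = 5 arrays each). Between LPS+RSV and LPS it differed by 0.33 ± 0.08 (SE), or 1.25-fold, with a 95% confidence interval of 0.15 to 0.50. It ranked 110 of 11804 genes by limma's p, which was 0.00104 before adjustment. After Benjamini-Hochberg adjustment over all genes it did not pass (limma adjusted p = 0.111). The 2-sided exact permutation test of SIRT3 alone gave p = 0.0159, where 0.00794 is the smallest that 5 against 5 arrays allow. Without LPS replicate 3 the difference was 0.38 and passed (limma adjusted p = 0.0456), the only fit without 1 array in which it did.

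Between LPS and control SIRT3 differed by -0.21 ± 0.08, with an interval of -0.38 to -0.04 (limma adjusted p = 0.544, exact permutation p = 0.0317). LPS+RSV stood 0.12 ± 0.08 above control, with an interval of -0.06 to 0.29 (limma adjusted p = 0.571). The 3 comparisons share their arrays and are not independent of each other. Without LPS+RSV replicate 1, the highest SIRT3 array, the difference from LPS was 0.28 (limma adjusted p = 0.181) and that from control was 0.07.

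SIRT1, the nuclear sirtuin, was lowest in LPS+RSV. Its control arrays read 9.05, 9.08, 8.97, 8.90 and 8.82, again in the order of replicates 1 to 5. Its LPS arrays read 8.97, 9.15, 8.91, 8.91 and 9.11. Its LPS+RSV arrays read 8.50, 9.03, 8.91, 8.85 and 8.55. LPS+RSV replicates 1 and 5 stood well below the 13 other arrays, and the remaining 3 lay within or just below the range of LPS. LPS arrays spanned 8.91 to 9.15 and control arrays 8.82 to 9.08, with LPS replicates 2 and 5 above every control array.

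The mean SIRT1 level was 8.97 ± 0.11 in control, 9.01 ± 0.11 in LPS and 8.77 ± 0.23 in LPS+RSV (SD, n = 5 each). LPS+RSV differed from LPS by -0.24 ± 0.10 (SE, interval -0.45 to -0.03), so that LPS was 1.18-fold higher, and this did not pass (limma adjusted p = 0.223). The spread in LPS+RSV was wider than in the other groups while the model shares 1 spread, and the exact permutation p was 0.103. The difference from control was -0.20 ± 0.10 (interval -0.41 to 0.02, limma adjusted p = 0.482), and -0.13 without LPS+RSV replicate 1. Between LPS and control it was 0.04 ± 0.10, with an interval of -0.17 to 0.26 (limma adjusted p = 0.953). Without LPS+RSV replicate 1, SIRT1 differed from LPS by -0.17 (limma adjusted p = 0.423).

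**Figure D1:**
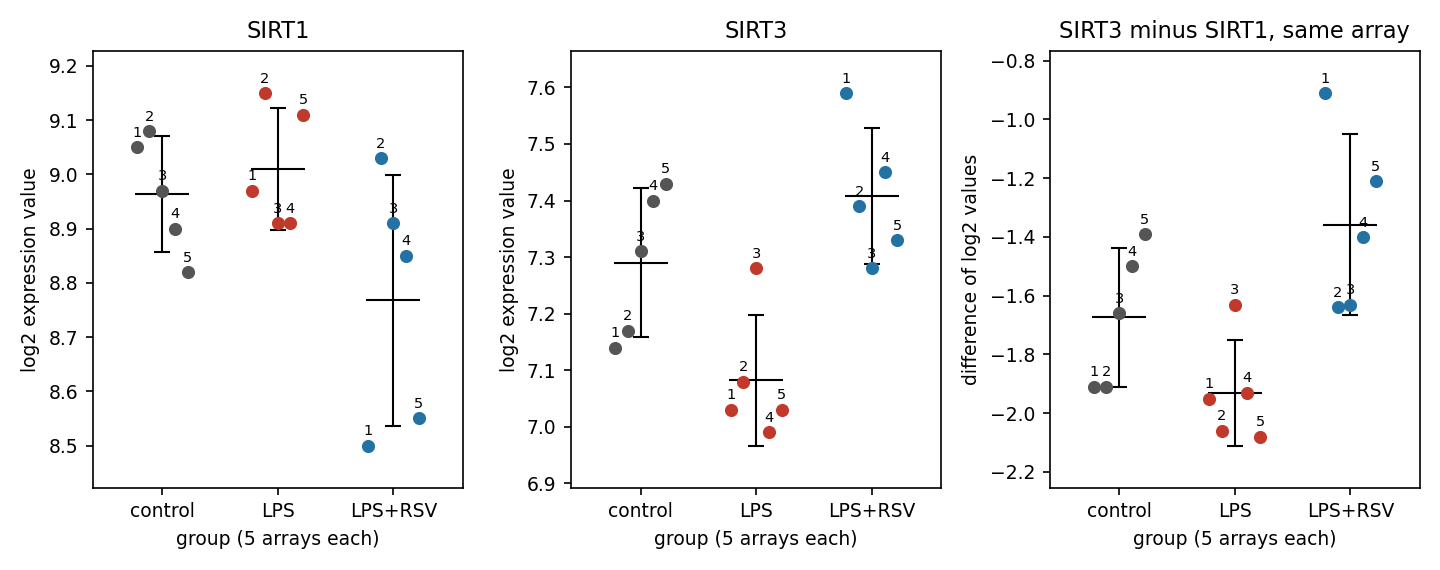
Log2 expression of SIRT1 (left) and SIRT3 (middle) and their difference on the same array (right), by group. Points are arrays labelled with their replicate number, horizontal lines are group means and bars are ± 1 SD; the y axes do not start at 0. In LPS+RSV, SIRT3 sits at 7.28 to 7.59 and SIRT1 at 8.50 to 9.03.

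Whether the differences of SIRT3 and SIRT1 were unequal was tested through SIRT3 minus SIRT1 on each array, a contrast chosen with earlier results known. It does not test whether their signs are opposite. Levels of different probe sets cannot be set against each other, so that only shifts of this difference between groups carry meaning. It was -1.67 ± 0.23 in control, -1.93 ± 0.18 in LPS and -1.36 ± 0.31 in LPS+RSV (SD, n = 5 each). LPS+RSV stood 0.57 above LPS, with an exact permutation p of 0.0238 and 0.0714 after adjustment over the 3 comparisons. Only LPS replicate 3, at -1.63, reached the LPS+RSV range of -1.64 to -0.91. LPS stood at -0.25 from control and LPS+RSV at 0.31 (exact permutation p = 0.0794 and 0.0952, adjusted p = 0.0952 for each). In LPS+RSV against LPS the shift passed after a second quantile normalization (exact permutation, adjusted p = 0.0238), after cyclic loess (0.0476) and without LPS replicate 3 (0.0238). Without LPS+RSV replicate 1 it was 0.45 (exact permutation, adjusted p = 0.0952), and LPS+RSV then stood 0.20 from control (exact permutation, adjusted p = 0.206).

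SIRT5 and SIRT4, the other mitochondrial sirtuins, were also higher in LPS+RSV than in LPS. SIRT5, which removes succinyl and malonyl groups from lysines, read 7.26, 7.34, 7.55, 7.39 and 7.44 in LPS. In LPS+RSV it read 7.72, 7.71, 7.58, 7.68 and 7.47, so that 4 of 5 arrays lay above every LPS array. The difference was 0.24 ± 0.08 (SE, interval 0.06 to 0.41, limma adjusted p = 0.173), with an exact permutation p of 0.0159. Control arrays of SIRT5 spanned 7.35 to 7.77, and LPS differed from them by -0.19 ± 0.08 (limma adjusted p = 0.602).

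SIRT4, a mitochondrial regulator of glutamate use and fat oxidation, had a level near the median of all rows. LPS arrays spanned 5.33 to 5.64, LPS+RSV arrays 5.49 to 5.99 and control arrays 5.31 to 5.73. LPS+RSV differed from LPS by 0.27 ± 0.11 (interval 0.04 to 0.50, limma adjusted p = 0.209, exact permutation p = 0.0476) and 3 of 5 arrays lay above every LPS array. LPS and control differed by -0.07 ± 0.11.

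For the nuclear and cytoplasmic members SIRT2, SIRT6 and SIRT7, LPS+RSV replicate 1 was the highest array of its group. It stood apart in SIRT2 and SIRT6. SIRT2, a tubulin and histone deacetylase, read 8.66 on LPS+RSV replicate 1 against 8.15 to 8.29 on the other 4 arrays of its group. SIRT6, a histone deacetylase of DNA repair and glycolytic genes, read 7.39 there against 6.92 to 7.02. SIRT7, a sirtuin of the nucleolus, read 7.68 there and 7.48 on LPS+RSV replicate 5, against 7.16 to 7.24 on the others of the group. LPS+RSV differed from LPS by 0.13 ± 0.08 for SIRT2, 0.14 ± 0.08 for SIRT6 and 0.17 ± 0.11 for SIRT7 (limma adjusted p = 0.399, 0.380 and 0.422). Without LPS+RSV replicate 1 the differences were 0.05, 0.06 and 0.08.

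**Figure D2:**
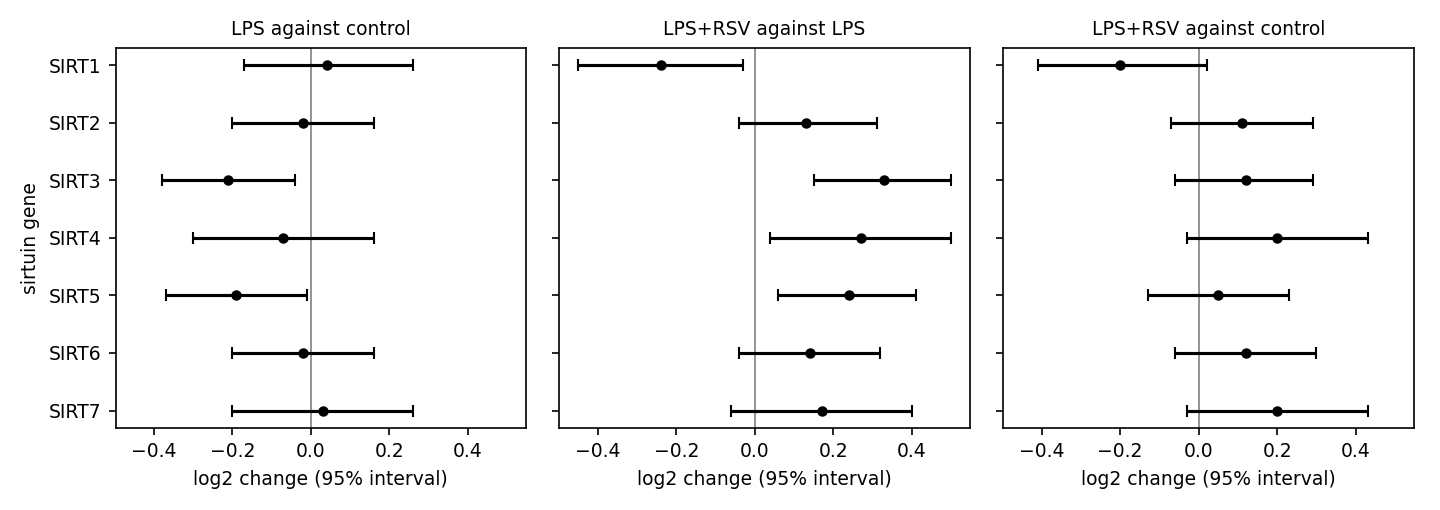
Log2 change of the 7 sirtuins in each of the 3 comparisons, with points for limma's estimate and bars for its 95% confidence interval, unadjusted for the number of genes. In LPS+RSV against LPS, 6 sirtuins lie to the right of 0 and SIRT1 to the left, at -0.24.

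Across the family, SIRT1 was lower and the other 6 sirtuins were higher in LPS+RSV than in LPS, and the family's median log2 difference was 0.17. Over all genes tested 52.1% were higher and the median was 0.01. The number of sirtuins called was 0 of 7 by limma, where 0.0424% of all genes were called at an adjusted p under 0.05 (0.00847% higher, 0.0339% lower). At an unadjusted limma p under 0.05 there were 4 of 7 (SIRT3, SIRT4 and SIRT5 higher, SIRT1 lower) against a background of 18.6% (8.08% higher, 10.5% lower). By the exact permutation test there were 3 of 7. That test was not run over all genes, so its counts have no background share in any comparison. Without LPS+RSV replicate 1 the count at an unadjusted p was 2 of 7, SIRT3 and SIRT5, when 703 genes were higher and 947 lower at that p and the family median was 0.08. Without LPS replicates 1 and 2 it was 1 of 7, SIRT3, beside 13.2% of all genes. In 0 of 7 did the LPS+RSV and LPS arrays separate fully, as they did for 2.8% of genes.

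In LPS against control 5 of 7 sirtuins were lower, with a median of -0.02, beside 47.3% of all genes lower, 52.7% higher and a median of 0.01. By limma 0 of 7 were called (background 0.0254%). SIRT3 and SIRT5 had an unadjusted limma p under 0.05 (both lower, 2 of 7, background 7.88%, of which 4.62% higher and 3.26% lower). By the exact permutation test it was SIRT3 alone (1 of 7, with no background share computed). Without LPS replicates 1 and 2 the count at an unadjusted p was 0 of 7, beside 5.77% of all genes. Arrays separated fully for 0 of 7 sirtuins and 2.21% of genes. In LPS+RSV against control 6 of 7 were higher, with a median of 0.12 beside 55.8% of all genes and a median of 0.02. There 0 of 7 were called by limma, at an unadjusted p under 0.05 (background 10.5%), or by the exact permutation test. Over all genes limma called 0.0%, while 4.09% were higher and 6.4% lower at an unadjusted p, and 1.72% separated fully against 0 of 7 sirtuins.

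Arrays within a group differed in the level of cell cycle genes, against which SIRT1 and SIRT3 were tested. A cell cycle score, the mean log2 deviation of 34 genes such as MKI67 and CDK1, spanned -0.99 to 0.47 on control arrays, -0.02 to 0.98 on LPS arrays and -0.86 to 0.45 on LPS+RSV arrays. LPS replicates 4 and 5 scored highest, at 0.84 and 0.98, and the other LPS arrays lay within the control range. Each of the 34 genes had a higher mean in LPS than in control (median 0.53), as did 52.7% of all genes. By limma 0 were called (10 at an unadjusted p under 0.05, all higher, background 4.62% higher). Each also had a lower mean in LPS+RSV than in LPS (median -0.66), as did 47.9% of all genes. Again 0 were called (21 at an unadjusted p under 0.05, all lower, background 10.5% lower). With each group centred on its mean, SIRT1 ran with the score over the 15 arrays. Its Pearson r was 0.667 (permutation p = 0.00712, adjusted p = 0.028) and its Spearman rho 0.625 (permutation p = 0.014, adjusted p = 0.028). Within LPS alone SIRT1 did not order by the score: replicates 3 and 4 both read 8.91, at scores of -0.02 and 0.84. Relations within single groups were not tested.

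SIRT3 ran against the score, with a Pearson r of -0.634 (permutation p = 0.0122, adjusted p = 0.028) and a Spearman rho of -0.561 (permutation p = 0.0315, adjusted p = 0.0473). Within LPS+RSV alone SIRT3 did not order by the score: replicates 2 and 5 read 7.39 and 7.33, at scores of 0.45 and -0.86. Leaving out the 2 arrays farthest on the group-centred score, LPS+RSV replicate 2 and control replicate 5, gave r = 0.542 for SIRT1 and -0.624 for SIRT3. SIRT1 against SIRT3 gave r = -0.503 (permutation p = 0.0572, adjusted p = 0.0686) and rho = -0.450 (permutation p = 0.0948, adjusted p = 0.0948). That r was -0.410 without the 2 arrays farthest in group-centred SIRT1 and -0.332 without LPS+RSV replicate 1. P-values were adjusted over these 3 relations by both measures, and the arrays of a group may not be independent cultures. Centred values were permuted over all 15 arrays without regard to the group means removed. The permutation p-values of all 3 relations are therefore somewhat too small, and the adjusted p of 0.0473 for SIRT3 lies close to 0.05.

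**Figure D3:**
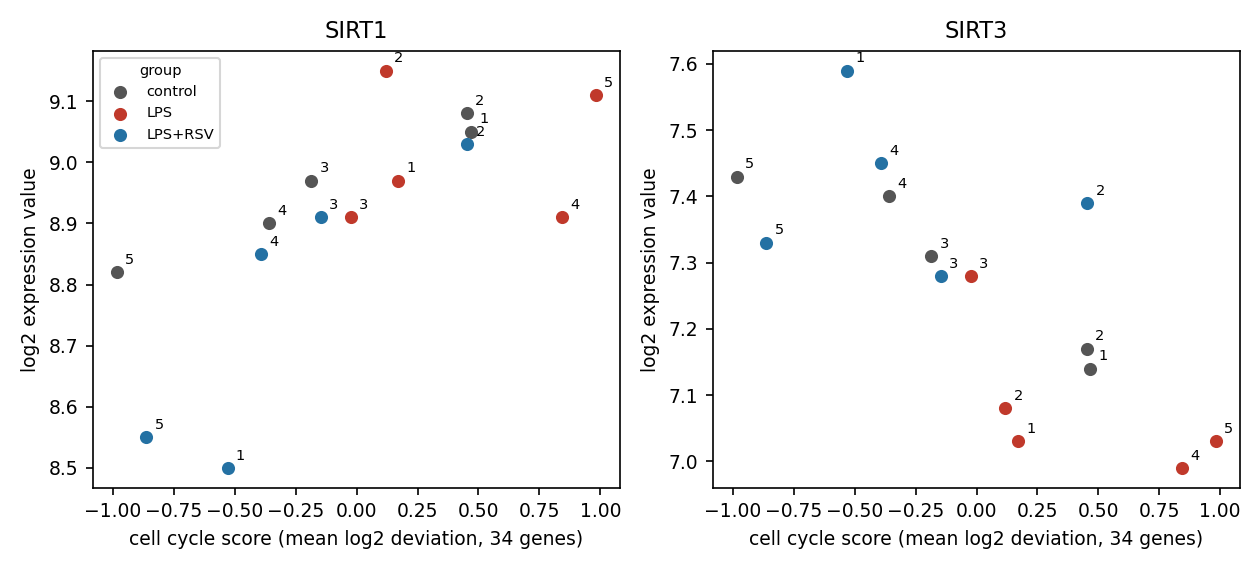
Log2 expression of SIRT1 (left) and SIRT3 (right) against the cell cycle score of the same array, with colours for the 3 groups and labels for replicate numbers; y axes do not start at 0. LPS replicates 4 and 5, at scores of 0.84 and 0.98, hold SIRT3 values of 6.99 and 7.03.

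With the score as a covariate, SIRT3 in LPS+RSV against LPS differed by 0.22 ± 0.08 (limma adjusted p = 0.268) and SIRT1 by -0.09 ± 0.09 (limma adjusted p = 0.754). In LPS against control the SIRT3 difference was then -0.13. SIRT5 ran with the score (r = 0.619 over the 15 centred arrays, a description with no test). Its LPS+RSV difference from LPS was 0.34 ± 0.08 with the covariate (limma adjusted p = 0.118). SIRT4 and SIRT7 ran against it, with r of -0.609 and -0.608, and with the covariate their differences were 0.12 and 0.02. SIRT2 and SIRT6 followed the score less, with r of -0.155 and -0.3. The share of all tested genes that follow the score as closely as SIRT1 and SIRT3 was not computed. The median score was -0.19 in control, 0.17 in LPS and -0.39 in LPS+RSV, so score and treatment overlap in this design and their parts cannot be told apart.

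The genes most like each member, by Pearson r over the 15 arrays with groups centred, were named as a description. For SIRT1 they were MED20, a Mediator subunit gene, at 0.968, WDR47 at 0.961, UCHL3, a ubiquitin hydrolase gene, at 0.937, RALGPS2 at 0.936 and RFESD at 0.926. Among these UCHL3 differed most between LPS+RSV and LPS, by -0.52 (limma adjusted p = 0.160). For SIRT3 they were SYNGR3 at 0.923, DEAF1, a transcription factor gene, at 0.919, CFAP410 at 0.915, TMEM82 at 0.912 and ACSM2B at 0.909. None of these 5 differed by more than 0.21 between LPS+RSV and LPS. Among sirtuin pairs the highest r was 0.859, for SIRT4 with SIRT7, and the lowest was -0.747, for SIRT1 with SIRT7. SIRT5 had r of -0.0179 with SIRT3 and 0.315 with SIRT1. SIRT2 had r of 0.258 with SIRT3 and -0.442 with SIRT1.

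NAD supply was read from 12 tested genes of 17 listed, with 0 called in any comparison. Over all genes tested limma called 0.0254% in LPS against control, 0.0424% in LPS+RSV against LPS and 0.0% in LPS+RSV against control. With shares so low, 0 called says little about a short list. In LPS+RSV against LPS 1 of the 12 was higher and 1 lower at an unadjusted p under 0.05 (background 8.08% higher, 10.5% lower). NAMPT, the rate-limiting enzyme of NAD salvage from nicotinamide, lay at 10.13 to 10.44 in LPS and 9.64 to 10.04 in LPS+RSV. All 5 LPS+RSV arrays lay below all 5 LPS arrays, where 2.8% of all genes tested separated fully. The NAMPT difference was -0.39 ± 0.11 (SE, limma adjusted p = 0.127). NAPRT, which starts NAD synthesis from nicotinic acid, differed in the other direction by 0.32 ± 0.13 (limma adjusted p = 0.198), with 8.14 to 8.47 in LPS and 8.25 to 8.87 in LPS+RSV. Of the 12 genes 8 were higher in LPS+RSV and 4 lower, with a median of 0.04. Enzymes that use NAD without being sirtuins were 5 of 11 tested, with 0 called. In LPS+RSV against LPS 1 of the 5 had an unadjusted p under 0.05, near the background of 18.6%. That was SARM1, the NAD hydrolase of axon degeneration, which differed by 0.21 ± 0.10 (limma adjusted p = 0.261). NUDT12, which cleaves NAD and NADH, differed by -0.28 ± 0.20, and by -0.02 without LPS+RSV replicate 1. PARP1, the main poly-ADP-ribose polymerase, differed by -0.07 ± 0.14.

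Of regulators, 9 of 17 listed for SIRT1 and 5 of 10 listed for SIRT3 were tested, and 0 were called in any comparison. CREB1, a cAMP-responsive transcription factor, differed between LPS+RSV and LPS by -0.49 ± 0.19 (limma adjusted p = 0.194). LPS+RSV replicate 1 was lowest in CREB1 at 6.27, and without it the difference was -0.31. E2F1, a cell cycle transcription factor, differed by -0.27 ± 0.16. E2F1 stood 0.41 above control in LPS (limma adjusted p = 0.564). Among SIRT3 regulators, ESRRA, the nuclear receptor ERRα, differed by 0.08 ± 0.10 and FOXO3 by 0.08 ± 0.08, or 0.03 and 0.01 without LPS+RSV replicate 1. MIPEP, a mitochondrial import peptidase gene, differed by 0.11 ± 0.07.

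Known SIRT1 substrates were tested for 20 of 30 listed genes, as transcripts and not as acetylated proteins. Of them 9 had a higher and 11 a lower mean in LPS+RSV than under LPS (median 0.00), and 0 were called (5 of 20 at an unadjusted p under 0.05, background 18.6%). MYC, a growth transcription factor, lay at 6.75 to 7.77 in LPS and 5.89 to 7.02 in LPS+RSV, a difference of -0.81 ± 0.20 (limma adjusted p = 0.103). It stood 0.87 above control in LPS (limma adjusted p = 0.219). BMAL1, a core circadian clock factor, differed by -0.33 ± 0.10 (limma adjusted p = 0.151) with no overlap between the groups. Groups did not overlap for 2.8% of all genes tested. FOXO4 differed by 0.36 ± 0.12 and NBN, a DNA break sensor, by -0.47 ± 0.16.

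Known SIRT3 substrates were tested for 15 of 30 listed genes. In LPS+RSV against LPS 8 were higher and 7 lower, with a median of 0.04, and 0 were called (4 of 15 at an unadjusted p under 0.05, background 18.6%). Without LPS+RSV replicate 1 that count was 1 of 15, when 703 genes were higher and 947 lower at that p among 11804. HADH, an enzyme of fatty acid oxidation, lay at 8.66 to 9.08 in LPS and 8.59 to 9.71 in LPS+RSV. That difference was 0.53 ± 0.25 (limma adjusted p = 0.267). Control arrays of HADH spanned 8.44 to 9.70, and LPS+RSV stood 0.28 ± 0.25 above control (limma adjusted p = 0.643). OPA1, which fuses mitochondrial inner membranes, differed by -0.51 ± 0.16 (limma adjusted p = 0.149), with LPS+RSV replicate 1 lowest at 7.61. ALDH2, the mitochondrial aldehyde dehydrogenase, and MRPL10, a mitochondrial ribosomal protein gene, each differed by 0.17.

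**Figure D4:**
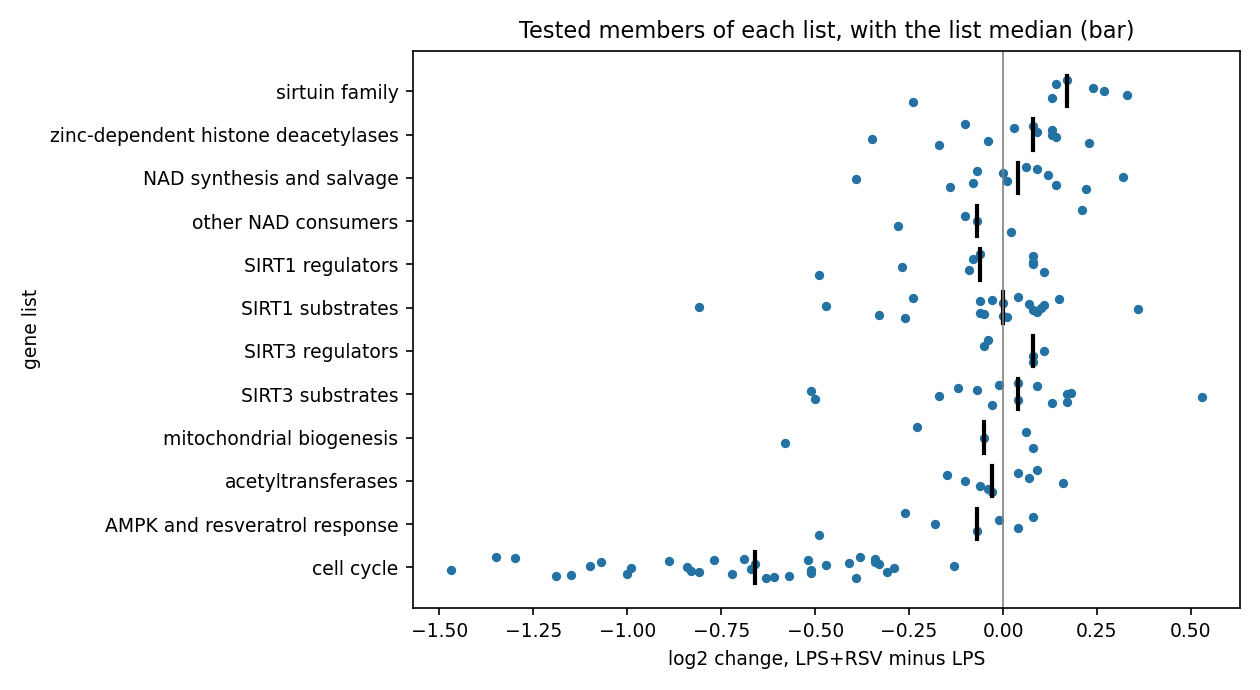
Log2 change in LPS+RSV against LPS of each tested gene, by gene list, with points for genes and black bars for list medians. The sirtuin family has a median of 0.17, and the SIRT1 and SIRT3 substrates have medians of 0.00 and 0.04.

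Of mitochondrial biogenesis genes only 5 of 14 listed were tested. NFE2L2, which encodes the antioxidant factor NRF2, lay at 8.25 to 8.34 in LPS, above every control array (7.84 to 8.09) and every LPS+RSV array (7.19 to 7.98). Full separation of this kind was found for 2.21% of all genes tested between LPS and control. Between LPS+RSV and LPS it was found for 2.8%. NFE2L2 differed between LPS+RSV and LPS by -0.58 ± 0.12 (limma adjusted p = 0.0667). Its lowest array was LPS+RSV replicate 1, at 7.19, and without that array the difference was -0.45 (limma adjusted p = 0.0814). Among 7 tested genes of AMPK signalling and resveratrol response, AHR, the aryl hydrocarbon receptor that resveratrol antagonises, was 10.22 to 10.57 in LPS and 9.59 to 10.13 in LPS+RSV. The AHR difference was -0.49 ± 0.10 (limma adjusted p = 0.0687), with no overlap, as for 2.8% of all genes tested. NRF1, a transcription factor of respiratory genes, differed by -0.05 ± 0.07.

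**Figure D5:**
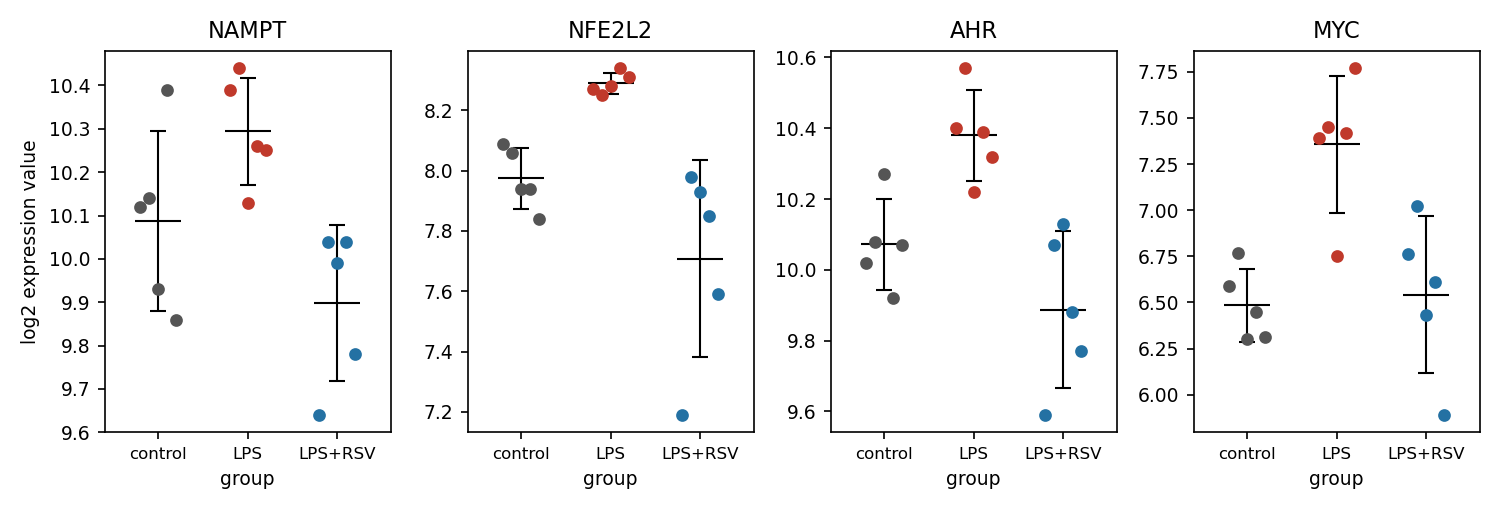
Log2 expression of NAMPT, NFE2L2, AHR and MYC by group, with points for arrays, lines for means and bars for ± 1 SD; the y axes differ and do not start at 0. NAMPT, NFE2L2 and AHR show no overlap between LPS and LPS+RSV, as did 2.8% of all genes tested. The genes shown were named by lowest p in this comparison, which favours separation.

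The zinc-dependent histone deacetylases HDAC1 to HDAC11, a family unrelated to sirtuins in mechanism, were all tested. Of these 11 genes LPS+RSV had 7 higher and 4 lower than LPS (median 0.08), and 0 were called (2 of 11 at an unadjusted p under 0.05, background 18.6%). HDAC2, a class I enzyme of the nucleus, differed by -0.35 ± 0.15 and HDAC3 by 0.14 ± 0.06 (limma adjusted p = 0.247 and 0.264). Of 9 tested acetyltransferases 4 were higher and 5 lower, with a median of -0.03. Of these 0 were called, beside 0.0424% of all genes, and 0 of 9 had an unadjusted p under 0.05 (background 18.6%). KAT2A, known as GCN5, differed by 0.16 ± 0.08.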

How the data were processed

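Total RNA (300 ng per sample) from 15 Caco-2 samples was hybridised to an Affymetrix whole-transcript array, per the labels' protocols. The deposited values are log2 expression values made with RMA, per the submitters' processing notes; RMA equalises array distributions, and the array annotation build is not given in the sources used here. Array medians lay between 5.49 and 5.54. The table had 53617 rows: 16098 carried 1 symbol, 37519 carried none here, and 0 carried more. The brightest row stood for each of 14884 symbols. Genes above the 40th percentile of an array's rows in at least 5 arrays were tested: 11804.

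Group means were modelled over the 15 arrays (limma 3.58.1, R 4.3.3), and p-values were adjusted by Benjamini-Hochberg over all genes, with calls at 0.05. Scripts were tested on simulated data. Single values used 2-sided exact permutation tests; correlations used 100000 permutations. The 2 sirtuins, gene lists, tests and alternatives (filter, rows, normalization, moderation, weights, samples, replicate block, cell cycle covariate, arrays left out) were chosen with earlier results of these data known. Named genes were all sirtuins, up to 4 members per list by calls and then lowest p in LPS+RSV against LPS, the 5 most like SIRT1 and SIRT3, and cell line markers. The number of arrays limits the precision.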

Additional observations from a re-analysis of the deposited data

Results flagged for a closer look

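Both flagged values belong to LPS+RSV replicate 1, which lay far from the other 4 arrays of its group. SIRT2 read 8.66 there, and SIRT6 read 7.39. Chance flags about 1 in 20 such groups, and 27 groups of values were checked.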

How the results depend on the processing

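Over the 12 alternatives fitted with limma, apart from those leaving out 1 array, SIRT3 in LPS+RSV against LPS stayed between 0.22 and 0.35 (adjusted p = 0.0898 to 0.337). SIRT1 stayed between -0.24 and -0.09 (adjusted p = 0.204 to 0.754). The unadjusted exact permutation test put SIRT3 past 0.05 at 0.33 in this comparison and at -0.21 in LPS against control. SIRT3 minus SIRT1 passed at 0.52 after a second quantile normalization and 0.51 after cyclic loess. In LPS against control several small differences reversed. With the cell cycle covariate SIRT1 was -0.07, SIRT4 0.04 and SIRT6 0.02; without LPS replicates 1 and 2 SIRT4 was 0.01 and SIRT6 0.00; with array weights SIRT7 was -0.04. The causes were not tested.

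Leaving out 1 array at a time gave 0.28 to 0.38 for SIRT3 in LPS+RSV against LPS (limma adjusted p = 0.0456 to 0.232) and -0.31 to -0.17 for SIRT1 (0.0844 to 0.423). SIRT3 minus SIRT1 gave 0.45 to 0.64. In LPS against control the ranges were -0.05 to 0.00 for SIRT2, -0.05 to 0.01 for SIRT6 and -0.04 to 0.07 for SIRT7. SIRT5 in LPS+RSV against control ranged from -0.01 to 0.10.

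The number of genes called by limma in LPS against control was 3. It was 15 with array weights, 70 with the covariate, 0 when only those 2 groups were fitted (1101 at an unadjusted p under 0.05) and 1 to 10 without 1 array. It was 10 without LPS replicate 3, 8 without LPS+RSV replicate 1 and 1 without control replicate 3, 4 or 5, LPS replicate 1, 2, 4 or 5, or LPS+RSV replicate 4. In LPS+RSV against LPS 5 were called. The count was 9 with the filter at the median, 20 after quantile normalization, 12 after cyclic loess, 25 with array weights, 22 with the covariate, 1 without LPS replicates 1 and 2, and 0 with only those 2 groups (1897 unadjusted). It was 1 to 121 without 1 array: 121 without LPS+RSV replicate 2, 102 without LPS replicate 3, 3 without control replicate 1, 5 without control replicate 2 or 5, and 1 without any other. LPS+RSV against control gave 0 in all of these (1239 unadjusted with the main settings).

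Same-numbered arrays did not deviate together throughout: 4 of 15 pairs correlated over 0.1 (range -0.541 to 0.707). Of these, 3 joined control and LPS+RSV, whose 5 pairs ran from -0.441 to 0.707, and 5 of 15 arrays correlated best with their own number. With the replicate block, 6 genes were called for LPS against control and 3 for LPS+RSV against LPS, where SIRT3 was 0.33 (limma adjusted p = 0.183) and SIRT1 -0.24 (0.243). In LPS+RSV against control SIRT1 was -0.20 with the block (limma adjusted p = 0.547).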
